A study of Mus musculus with 2 samples.

Results

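Neutrophils were the subject here, read from synovial myeloid cells of arthritic mice by 3′ single-cell RNA sequencing. A cell was taken as a neutrophil when it had at least 500 genes, at most 10% mitochondrial unique molecular identifiers (UMIs, which count captured transcript molecules), a UMI of at least 4 of the 7 genes *S100a8*, *S100a9*, *Retnlg*, *Il1r2*, *Csf3r*, *Cxcr2* and *Slpi*, and fewer than 10 UMIs of *C1qa*, *C1qb* and *C1qc* together. This rule held for 278 of 10249 cells (2.71%). The cells were thus chosen by their measured UMIs of these 10 genes, whose levels describe the choice and are not results. C57BL/6 mice aged 7 to 10 weeks received 1 mg of β-glucan intraperitoneally (β-glucan-trained) or PBS alone (PBS-control). Arthritis was induced 7 days later in both groups, and CD45+CD11b+ cells were sorted from hind-paw synovium on day 17. Each group was 1 library of cells pooled from 4 mice. There was therefore no replicate, no test between the groups was possible, and every difference below is a difference between these 2 libraries. The sample labels name a cocktail of arthritogenic antibodies followed by lipopolysaccharide, whereas the design text and the study's methods name transfer of K/BxN serum, so the model is given here only as antibody-driven arthritis. The fungal source of the β-glucan was not specified for this experiment. The gate keeps all CD11b+ leukocytes and does not enrich neutrophils.

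Neutrophils are short-lived granulocytes that leave the bone marrow, enter inflamed tissue and release granule proteins, oxidants and cytokines. Granule genes are transcribed in turn while the cells mature in the marrow, primary before secondary before tertiary, and are mostly off in mature cells. Immune complexes in the joint engage their Fc receptors, and the chemokine receptor CXCR2, the leukotriene B4 receptor and IL-1 signalling are known to take part in their recruitment in serum-transfer arthritis. β-Glucan, a cell wall sugar of fungi, is known as an inducer of trained innate immunity that acts in part on progenitors in the marrow.

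*S100a8* and *S100a9* were the most abundant protein-coding transcripts of the cells, and *Il1b* was the most abundant gene outside the rule that codes for a cytokine. *Ngp* was among the genes that varied most between cells. The 250 bases before the RefSeq start of these 4 genes are printed to show the promoters of genes that either define the cells or vary within them (RefSeq, build GRCm38.p6, 5′ to 3′ on the strand of the gene). Capitals mark matches to TTNNGNAA, a core of sites for the C/EBP factors of myeloid cells, on either strand (TTNCNNAA as read on the other), to GAGGAA, a core of PU.1 sites, on either strand (TTCCTC on the other), and to TATAAA on the strand of the gene. They lie at chr3:90668821-90669070 (+ strand) for *S100a8*, chr3:90695722-90695971 (− strand) for *S100a9*, chr2:129371140-129371389 (− strand) for *Il1b* and chr9:110419558-110419807 (+ strand) for *Ngp*.
S100a8: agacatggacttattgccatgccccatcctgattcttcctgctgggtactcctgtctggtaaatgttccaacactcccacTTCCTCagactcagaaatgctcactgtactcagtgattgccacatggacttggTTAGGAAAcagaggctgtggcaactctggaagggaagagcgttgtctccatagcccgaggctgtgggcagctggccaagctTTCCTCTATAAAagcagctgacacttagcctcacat
S100a9: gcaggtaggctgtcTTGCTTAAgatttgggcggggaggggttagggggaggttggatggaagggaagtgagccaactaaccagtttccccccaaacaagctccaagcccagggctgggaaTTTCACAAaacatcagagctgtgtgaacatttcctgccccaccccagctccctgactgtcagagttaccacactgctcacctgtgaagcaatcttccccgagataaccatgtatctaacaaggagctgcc
Il1b: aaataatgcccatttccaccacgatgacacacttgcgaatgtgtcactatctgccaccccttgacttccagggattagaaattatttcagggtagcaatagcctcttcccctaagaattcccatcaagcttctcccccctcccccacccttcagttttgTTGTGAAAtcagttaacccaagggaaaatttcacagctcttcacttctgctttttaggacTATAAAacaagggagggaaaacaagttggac
Ngp: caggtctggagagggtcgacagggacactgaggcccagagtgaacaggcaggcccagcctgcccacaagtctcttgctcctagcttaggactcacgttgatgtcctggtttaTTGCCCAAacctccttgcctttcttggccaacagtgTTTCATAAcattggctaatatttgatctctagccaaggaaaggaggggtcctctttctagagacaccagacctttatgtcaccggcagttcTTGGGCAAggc
The C/EBP core stood once before *S100a8*, at 2 places before *S100a9*, once before *Il1b* and at 3 places before *Ngp*. The PU.1 core stood at 2 places before *S100a8* and in none of the other 3 windows. TATAAA began 30 bases before the start of *S100a8* and 31 bases before that of *Il1b*. Of 32851 mouse promoter windows of this length, 36.8% held the C/EBP core and 23.3% the PU.1 core on either strand, and 7.59% held TATAAA on the strand of the gene. A match is a string of letters and was not tested for binding.

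The β-glucan library held 7196 barcodes and 81611849 UMIs, of which 5696 cells passed the filter. The PBS library held 5760 barcodes and 73874602 UMIs, of which 4553 cells passed. Neutrophils were shallow cells. Their median was 4217 UMIs and 1479 genes in the β-glucan library and 4381 UMIs and 1554 genes in the PBS library, against 12457.5 and 14475 UMIs over all cells that passed. Their summed UMIs were 819931 and 808147, and levels below are CPM, each gene's UMIs with these sums scaled to the same total, on which 1 UMI is a little over 1 CPM. A 3′ UMI is meant to count 1 transcript end, so levels were not scaled by gene length. Whether intronic reads were counted is not given, and how far levels compare between genes was not tested. Intervals are exact 95% intervals and cover counting error only, not differences between mice or cells. The 2 libraries shared 7 barcodes, of which 2 passed the filter in both and 0 were neutrophils in both.

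The label was checked against markers that the rule did not use, of which some were in nearly all cells and others sparse. *Hdc*, which makes histamine and is strong in mouse neutrophils, had a UMI in 99.3% of neutrophils of the β-glucan library and 96.5% of the PBS library. *Clec4d*, a C-type lectin receptor of myeloid cells, was found in 98.5% and 95.8%, *Mmp9*, the gelatinase of tertiary granules, in 93.3% and 90.9%, and *Trem1*, an amplifying receptor of neutrophils and monocytes, in 83.7% and 86.0%. In macrophages with 10 or more C1q UMIs and fewer than 4 of the 7 markers, which were deeper (median 13388 and 15841.5 UMIs), *Hdc* was found in 1.55% and 1.22%, *Mmp9* in 0.574% and 0.959% and *Trem1* in 3.13% and 4.57%, but *Clec4d* in 56.9% and 55.3%, so that *Clec4d* alone does not separate the cells. *Ly6g*, the surface antigen most used to identify mouse neutrophils, was sparse, in 10.4% and 9.79% of neutrophils and at 36.6 and 53.2 CPM. Its share in those macrophages was 0.0239% after β-glucan and 0 of 3128 cells in PBS-control mice, where 3 counts would be a share of 0.0959% of cells with a UMI. Some other members of the marker list were in a minority of neutrophils, *Cd177* in 12.6% and 8.39%, *Fpr1* in 20.7% and 35.0%, *Asprv1* in 22.2% and 42.0% and *Stfa2l1* in 33.3% and 35.7%, and *Cd177* was in 0.191% and 0.256% of those macrophages.

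**Figure D1:**
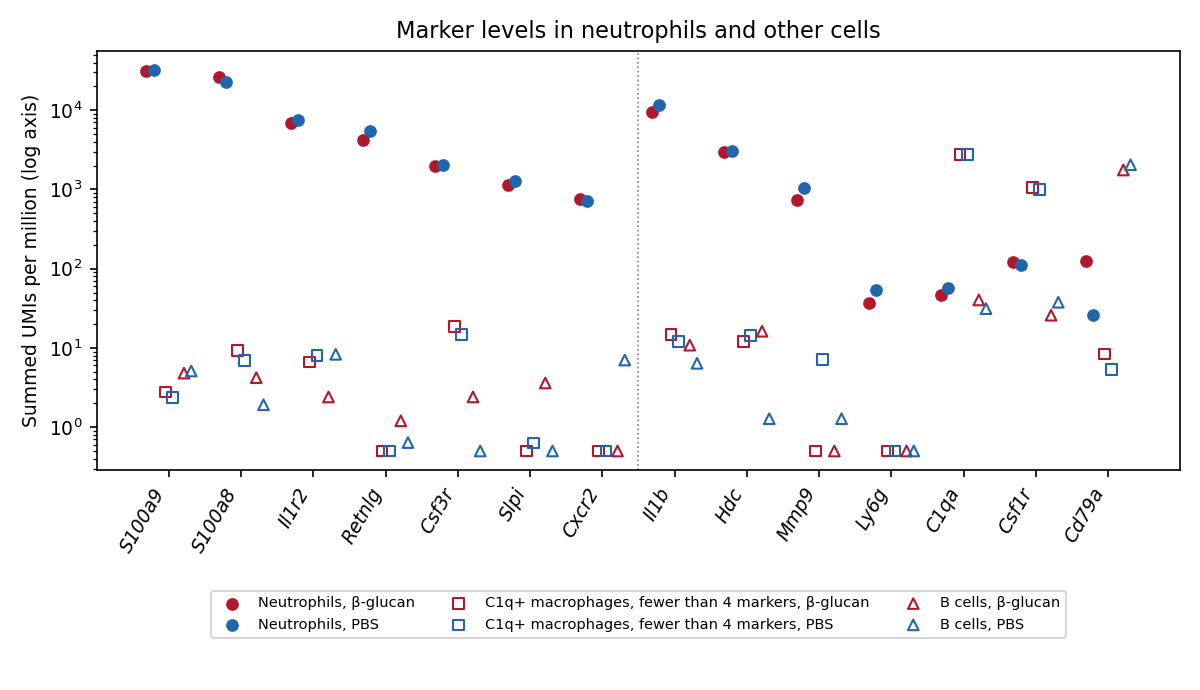
Level of 14 genes (x axis) in CPM of the summed UMIs (y axis, log axis) in neutrophils (filled circles), C1q macrophages with fewer than 4 of the 7 neutrophil markers (open squares) and B cells (open triangles) of the β-glucan (red) and PBS (blue) libraries. The 7 rule genes stand left of the dotted line, values under 0.5 are drawn at 0.5, and the red and blue circles of a gene lie close together while squares and triangles of neutrophil genes lie far below.

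The rule's limit on C1q decided how many neutrophils each library held. With it, neutrophils were 135 of 5696 cells (2.37%, interval 1.99% to 2.80%) after β-glucan and 143 of 4553 cells (3.14%, 2.65% to 3.69%) in PBS-control mice. The cells that met the marker rule but carried 10 or more C1q UMIs were 145 (2.55%) and 36 (0.791%), so that without the limit the shares were 4.92% (4.37% to 5.51%) and 3.93% (3.39% to 4.54%) and their order reversed. Of all marker-positive cells, 48.2% after β-glucan and 79.9% in PBS-control mice were neutrophils by the rule. The cells left out had a median of 19389 and 22760 UMIs and of 110 and 120.5 C1q UMIs, and *Csf1r*, the receptor of macrophage colony-stimulating factor, in 99.3% and 100% of cells. Their *S100a9* level was 3095 and 3326 CPM, between the 30967 and 32348 CPM of neutrophils and the 2.79 and 2.38 CPM of macrophages with fewer than 4 markers. The highest Scrublet doublet scores held 31 of these 145 cells and 31 of these 36. What these cells are was not tested.

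**Figure D2:**
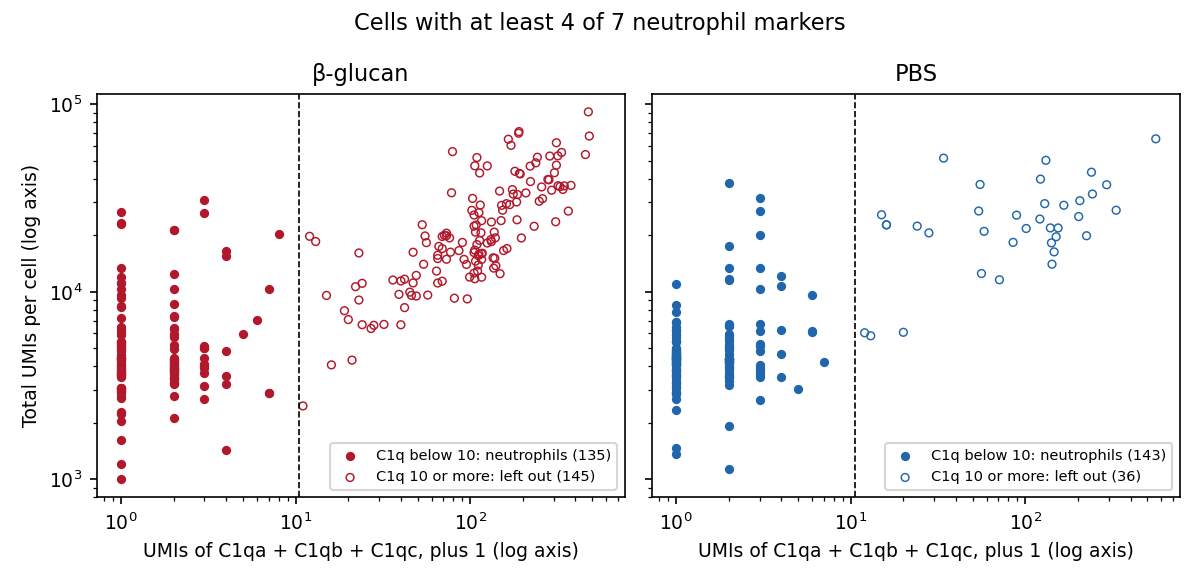
Each point is 1 cell with at least 4 of the 7 neutrophil markers, by its UMIs of C1qa, C1qb and C1qc plus 1 (x axis, log axis) and its total UMIs (y axis, log axis), for the β-glucan (left) and PBS (right) libraries. Filled points left of the dashed line are the 135 and 143 neutrophils, and open points right of it are the 145 and 36 cells left out, with medians of 19389 and 22760 UMIs.

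Few cells stood near either limit. The marker rule was met with exactly 4 markers by 2 and 4 cells, whereas 107 and 108 neutrophils had all 7, and 8 and 8 cells with 3 markers stood just outside. By *Il1r2*, itself a rule gene, and by *Il1b* these few cells describe the cut and do not support it. Those with 3 markers had a median of 0 and 1 *Il1r2* and 0 and 0.5 *Il1b* UMIs, against 49.5 and 41 *Il1r2* and 45 and 17.5 *Il1b* UMIs in those with 4. Below the C1q limit, 5 and 4 cells had 5 to 9 C1q UMIs, and above it 7 and 6 cells had 10 to 19. Medians of *Il1r2* were 29 and 39.5 UMIs just inside and 25 and 25.5 just outside.

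Each list of another cell type reached 10 UMIs in a minority of neutrophils, and whether that number differed between the libraries depended on the list. Below that limit such RNA was common. C1q UMIs were 0 in 67 of 135 and 73 of 143 neutrophils, and the other neutrophils held at least 1. The macrophage list reached 10 UMIs in 47 of 135 and 48 of 143 neutrophils, and the monocyte list in 18 and 16. At least 10 UMIs of one of the lists for MHC class II, B cells, T and NK cells, mast cells and basophils, or stromal cells were found in 23 of 135 neutrophils (17.0%) after β-glucan and 13 of 143 (9.09%) in PBS-control mice. These cells were deep, with a median of 11113 and 12183 UMIs against 3946.5 and 4367.5 in the other 112 and 130, and held 40.4% and 24.8% of all neutrophil UMIs. The MHC class II list summed to 8641 and 5139 CPM, led by *Cd74*, with 7 of 12 genes above 50 CPM. The B cell list summed to 1625 and 365.03 CPM, led by *Ighm*, with 8 of 10 above it. The stromal list summed to 1932 and 913 CPM, led by *Dcn*, with 4 of 10 above it. The mast cell and basophil list summed to 193 and 28.5 CPM, led by *Mcpt4*, with 91.1% of its β-glucan UMIs in 1 cell. The macrophage list summed to 2077 and 1913 CPM, led by *Ctsd*, with 10 of 18 above it, and stood at 17416 and 16635 CPM in C1q macrophages. The monocyte list summed to 1367 and 937 CPM, led by *Chil3*. Erythroid and platelet genes summed to 46.3 and 48.3 CPM, led by *Pf4*, and T and NK genes to 14.6 and 23.5 CPM. The eosinophil list summed to 21.95 and 23.5 CPM, led by *Ltc4s*, while the eosinophil genes *Epx* and *Prg2* were in 0 of 135 and 0 of 143 cells. The count and the cells left out below do not include the macrophage and monocyte lists. Because of these cells, the gene counts, several lists and many of the named genes are also given for the 112 and 130 neutrophils without them (without carrying cells), a choice made after the data were seen.

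Outside the rule genes, *Il1b* and *Ptgs2* were among the abundant transcripts and primary granule transcripts were nearly absent. The levels of the rule genes *S100a9*, *S100a8*, *Il1r2*, *Csf3r* and *Cxcr2* are given as a description of the cells chosen. *S100a9* stood at 30967 CPM after β-glucan and 32348 CPM in PBS-control mice, and *S100a8*, its partner in calprotectin, at 25879 and 22985. *Il1b* stood at 9572 and 11645 CPM, with a median of 54 and 61 UMIs per cell. *Il1r2*, the decoy receptor that binds IL-1 without signalling, reached 6960 and 7504 CPM, and *Il1rn*, the receptor antagonist, 248 and 332. Among receptors outside the IL-1 family, *Csf3r*, the receptor of granulocyte colony-stimulating factor, stood at 1988 and 2023 CPM, *Ccr1* at 820 and 839, *Cxcr2* at 755 and 720 and *C5ar1*, the C5a receptor, at 550.05 and 677 CPM. *Cxcr4*, a receptor that is higher on aged neutrophils, stood at 422 and 521 CPM. *Ptgs2*, the inducible cyclooxygenase, was at 1831 and 1940 CPM. The 6 primary granule genes of the feature table, among them *Elane* and *Mpo*, together had 8 and 5 UMIs, with *Mpo* in 0 of 135 and 0 of 143 cells, where 3 counts would be 2.22% and 2.10% of cells with a UMI. At this depth a UMI can be missed in a cell that makes the transcript.

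The genes that varied most within a library came from the rule, from granules, from inflammation, from other cell types and from mitochondria. With each cell thinned to 2000 UMIs (131 and 139 cells, with 4 shallower cells left out in each library), 2562 genes were ranked by the variance of UMIs over their mean in the library where this was lower. The 15 at the top were *Ngp*, *S100a9*, *S100a8*, *Gsn*, *Camp*, *Retnlg*, *Cd74*, *Dcn*, *Ccl4*, *mt-Atp6*, *Cxcl2*, *mt-Co3*, *Ltf*, *mt-Co1* and *H2-Ab1*, and 13 of them were also in the top 15 at 1000 UMIs. *S100a8*, *S100a9* and *Retnlg* are rule genes. *S100a9* ran from a lower quartile of 20 and 17 to an upper quartile of 86 and 88 thinned UMIs per cell. *Cxcl2*, a ligand of CXCR2, was absent from 29.0% of thinned β-glucan cells and 33.8% of PBS cells, while its highest cell held 56 and 116 thinned UMIs. *Ccl4*, a chemokine, was found in 26.7% and 24.5% of thinned cells only.

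Some pairs of genes varied together from cell to cell, and the pairs of *S100a8*, *S100a9*, *Retnlg* and *Csf3r* include genes of the rule. Across thinned cells, the Spearman correlation of *S100a8* with *S100a9* was 0.90 in the 131 β-glucan cells and 0.94 in the 139 PBS cells, of *S100a9* with *Retnlg*, a resistin-like secreted protein, 0.71 and 0.61, and of *S100a8* with *Lcn2*, the iron-siderophore binding lipocalin, 0.57 and 0.55. *Camp* with *Ngp* gave 0.62 and 0.59. *Il1b* gave 0.38 and 0.35 with *Hdc*, 0.34 and 0.37 with *Csf3r*, and 0.45 and 0.27 with *Ptgs2*, whereas *Il1b* with *S100a8* gave 0.09 and −0.11 and *Il1b* with *Ngp* −0.27 and −0.36. *Ccl6* gave 0.36 and 0.21 with *S100a9* and 0.42 and 0.34 with *Retnlg*. The cells of a library share its depth and background RNA, and these values are descriptions.

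RNA of the secondary granule genes *Camp*, *Ngp* and *Ltf* came from very few cells. The antimicrobial peptide gene *Camp* had 3051 UMIs after β-glucan and 526 in PBS-control mice, but in 6 and 4 cells, with 1659 and 1315 of the former in 2 cells and 465 of the latter in 1. Those same 3 cells held most of *Ngp*, the neutrophilic granule protein (904, 915 and 635 UMIs), and of *Ltf*, lactoferrin (176, 135 and 145 UMIs), and had 22942, 26227 and 17474 UMIs in all. One of the 2 β-glucan cells also had 22 UMIs of *Mki67*, a marker of cycling cells, the other 6 and the PBS cell 0. Granule-positive cells, with at least 2 UMIs of *Ltf*, *Camp* and *Ngp* after thinning, were 4 of 131 (3.05%, 0.838% to 7.63%) and 6 of 139 (4.32%, 1.60% to 9.16%), with overlapping intervals. With 1000 UMIs a cell they were 4 of 135 (2.96%) and 4 of 143 (2.80%). Unthinned, 8 of 135 (5.93%) and 8 of 143 (5.59%) met the rule. In C1q macrophages it was met by 0 of 4300 cells, where 3 counts would be 0.0698%, and by 1 of 3150.

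**Figure D3:**
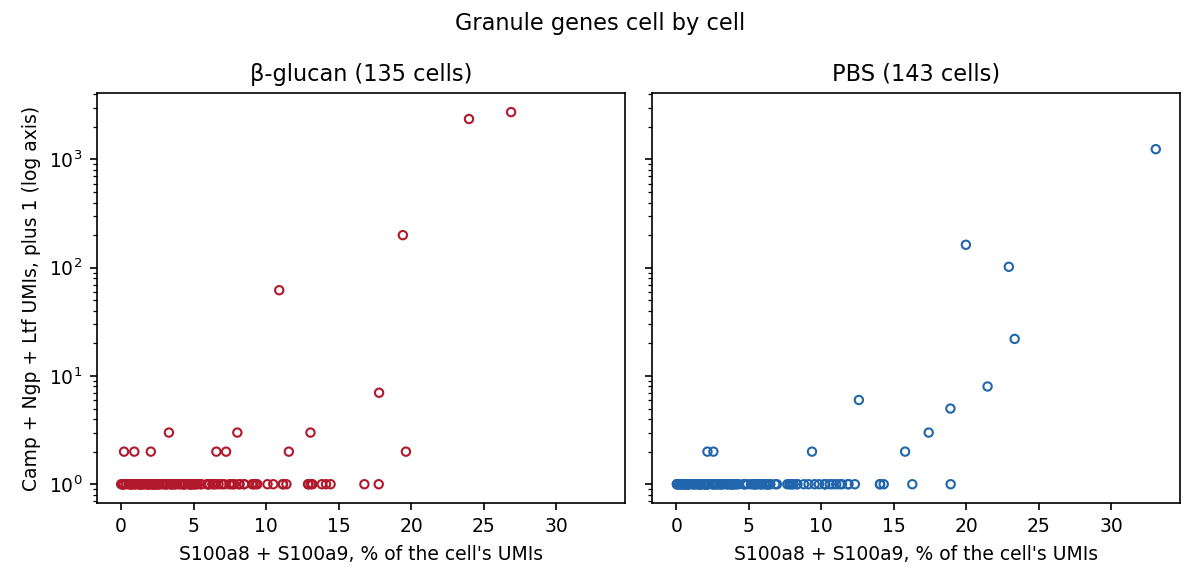
Each point is 1 neutrophil, by the percentage of its UMIs from S100a8 and S100a9 (x axis) and its summed UMIs of Camp, Ngp and Ltf plus 1 (y axis, log axis), for the β-glucan (left, 135 cells) and PBS (right, 143 cells) libraries. In both libraries nearly all cells lie at the bottom, and 2 cells on the left and 1 on the right lie above 1000 UMIs.

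Interferon-stimulated genes marked about as many neutrophils in both libraries. At least 3 UMIs of the 20 listed genes were found after thinning in 43 of 131 cells (32.8%, 24.9% to 41.6%) after β-glucan and 44 of 139 (31.7%, 24.03% to 40.1%) in PBS-control mice. The same rule gave 4.81% and 4.32% in C1q macrophages and 5.88% and 4.15% in B cells thinned alike. Unthinned, it gave 65.2% and 58.0% of neutrophils. The list was led by *Slfn4* (248 and 229 CPM) and *Trim30a* (272 and 202 CPM).

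Between the libraries, most neutrophil genes differed little. Over the 3141 genes whose mean reached 50 CPM, 222 (7.07%) were more than 1.5-fold higher after β-glucan and 154 (4.9%) more than 1.5-fold lower, and the median log2 ratio of β-glucan over PBS was −0.04 (quartiles −0.25 and 0.21). TMM scaling of the 2 sums gave 185 higher and 186 lower of 3139 genes, an even split. Leaving out each gene's highest cell in each library gave 245 (7.8%) and 161 (5.13%). In C1q macrophages, whose sums are many times larger, the same genes gave 3.53% and 0.732%. Those macrophages include the marker-positive cells. With fewer than 4 markers, macrophages had 53 higher and 42 lower of the same 3141 genes. Without the cells that carried lists of other cell types, 139 of 2799 genes (4.97%) were higher and 160 (5.72%) lower.

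**Figure D4:**
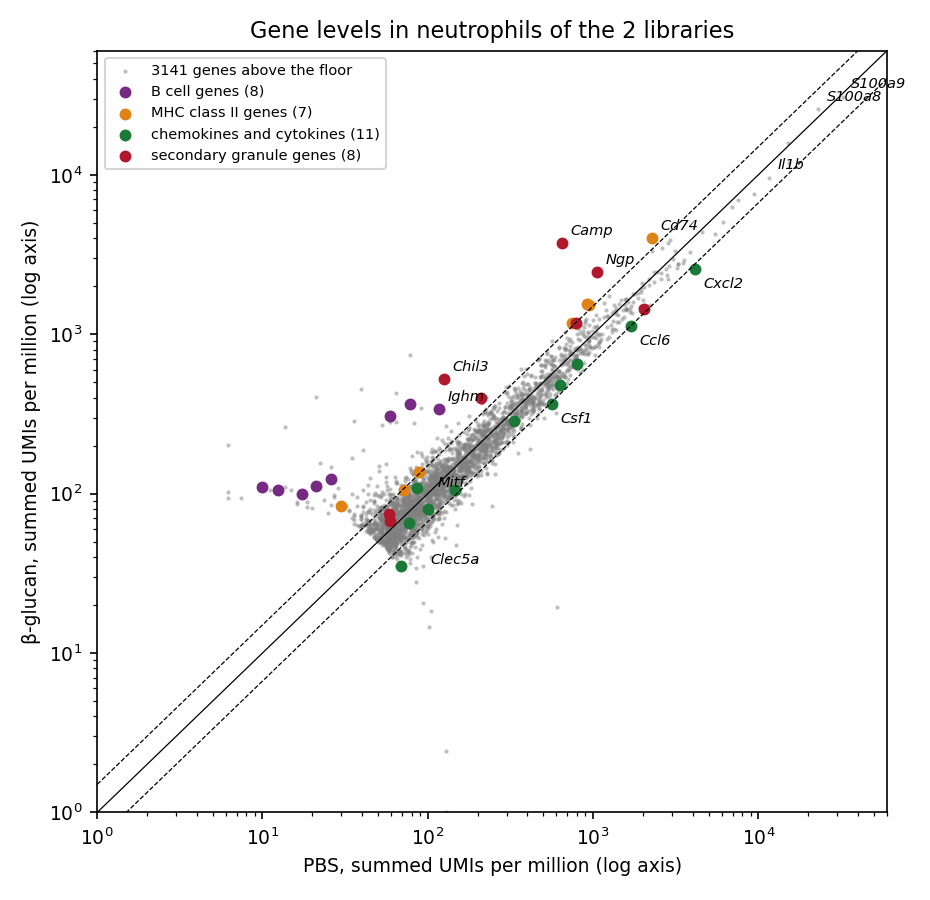
Level of each of 3141 genes in neutrophils of the PBS (x axis) and β-glucan (y axis) libraries in CPM of the summed UMIs, on log axes, with the line of equal levels (solid) and 1.5-fold either way (dashed). Coloured points are the genes of 4 lists, and 376 of all the genes lie outside the dashed lines.

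Many of the largest ratios belonged to B lineage genes or rested on 1 cell. Of the 10 highest that kept their sign with C1q under 3 UMIs, without cells of 10 or more MHC class II UMIs and without the highest doublet scores, *Ikzf3*, *Ms4a1*, *Pax5*, *Iglc1*, *Ly6d* and *Cd79b* are B lineage genes. *Ms4a1*, which codes for CD20, had 90 UMIs in 11 β-glucan cells and 8 UMIs in 3 PBS cells (log2 ratio 3.47, 2.43 to 4.73), and the 8 B cell genes above the floor had a median of 2.39. Most of them reached the floor only through their level in the β-glucan library, which sets the side of their ratios. In macrophages with fewer than 4 markers the median of these 8 genes was 0.65, on the same side. The other 4 of the 10 highest were *Tmem163*, *Immp2l*, *Sox5* and *Camp* (2.52, 2.38 to 2.65). Without the cells that carried other lists, *Ms4a1* had 1 and 1 UMIs, *Tmem163* 0 and 0, *Immp2l* 2 and 1 and *Sox5* 0 and 1. *Camp* was then at 2.03 (1.89 to 2.17). Among the 10 lowest, *Retnla*, a resistin-like gene of alternatively activated macrophages, had 16 against 492 UMIs, of which 472 were in 1 PBS cell. *Hpse2* had 82 UMIs in 1 PBS cell, *Igfbp5* 99 of 103 in 1 and *Errfi1* 86 of 105, and *Errfi1* turned to 0.19 without its highest cell. *Tmem123* was lower in more cells, with 69 UMIs in 33 cells against 199 in 62 cells (−1.55, −1.97 to −1.15), although 78 of the 199 were in 1 cell. *Bhlhe40*, a repressor linked to the circadian clock and to cytokine expression, had 33 UMIs in 15 cells against 85 in 30 (−1.39, −2.01 to −0.79; −1.51 without the cells that carried other lists). *Mmp25*, a membrane-bound metalloproteinase of neutrophils, had 28 UMIs against 69 (−1.32, −2.01 to −0.67), and −0.63 (−1.39 to 0.10) without the cells that carried other lists. The remaining 3 were *Simc1*, *Auts2* and *Stfa2*.

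Chemokine and cytokine transcripts leaned to the PBS library. Of 18 listed genes, 11 were above the floor, and 10 of them were lower after β-glucan, 4 past 1.5-fold (4.9% of all genes were), with a median log2 ratio of −0.40 against −0.04 over all genes, of which 45.9% were higher. Mitochondrial RNA lay on the other side, with a median of 0.367% of a neutrophil's UMIs after β-glucan and 0.253% in PBS-control mice. Across thinned cells *mt-Atp6* with *Ccl6* gave a Spearman correlation of −0.44 and −0.25, and with *Cxcl2* −0.17 and 0.02. Its part in these ratios was not tested. *Cxcl2* had 2547 CPM after β-glucan and 4127 in PBS-control mice (−0.70, −0.78 to −0.62), although the median cell had 9 UMIs in both. The highest cell held 114 UMIs after β-glucan and 233 in PBS-control mice. *Ccl6*, a chemokine of myeloid cells, had 1121 and 1689 CPM (−0.59, −0.71 to −0.47), and was found in 72.5% (64.0% to 80.0%) and 86.3% (79.5% to 91.6%) of thinned cells. *Csf1*, macrophage colony-stimulating factor, had 366 and 568 CPM (−0.63, −0.85 to −0.42), in 34.4% (26.3% to 43.1%) and 50.4% (41.8% to 58.9%) of thinned cells. *Tnfsf14*, known as LIGHT, had 29 and 56 UMIs (−0.97, −1.67 to −0.30). *Tgfb1* alone of the 11 was higher (0.33, −0.14 to 0.80). Without the cells that carried other lists, the median was −0.22 over 10 genes, 7 lower and 3 higher. Of these, 2 (5.72% of all genes) were past 1.5-fold lower. They were *Csf1* at −0.64 (−0.89 to −0.40) and *Tnfsf14* at −0.63 (−1.39 to 0.10), whose interval included 0. *Cxcl2* then stood at −0.57 and *Ccl6* at −0.30. In macrophages with fewer than 4 markers *Csf1* was lower too, at −1.54 (−1.82 to −1.26), as was *Cxcl2* at −0.27 (−0.33 to −0.22). There *Ccl6* was at 0.02 (−0.01 to 0.05) and *Tnfsf14* at 0.51 (−0.36 to 1.42), and the median of the 11 genes was −0.11. *Il6* had 43 UMIs after β-glucan, 41 of them in 1 cell, and 0 in PBS-control mice.

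Survival genes lay on the same side. Of 16 listed, 10 were above the floor and 9 were lower after β-glucan, 3 past 1.5-fold, against 4.9% of all genes past it, with a median of −0.45. *Btg1*, an inhibitor of proliferation, had 1485 and 1998 CPM (−0.43, −0.54 to −0.32), and *Mcl1*, on which neutrophil survival depends, 1443 and 1667 CPM (−0.21, −0.32 to −0.09). Without the cells that carried other lists, *Mcl1* was at −0.08 (−0.20 to 0.05), an interval that included 0. *Bcl2l11*, which codes for the death-promoting BIM, had 210 and 329 CPM (−0.65, −0.94 to −0.37; −0.36 without the cells that carried other lists). *Bcl2a1b*, of the A1 family of survival proteins, had 43 and 72 UMIs (−0.76, −1.34 to −0.20; −0.36, −0.99 to 0.26, without the cells that carried other lists). Without the cells that carried other lists, 9 of 10 were lower with a median of −0.23, where 1456 of all 2799 genes were lower. Of these 10, 0 were past 1.5-fold lower and 1 higher, against 5.72% and 4.97% of all genes. The 1 higher was *Fas*, the death receptor, at 0.69.

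Receptors of the innate response gave mixed values. In the C-type lectin list, *Clec5a* had 39 UMIs in 32 β-glucan cells and 75 in 41 PBS cells (−0.96, −1.56 to −0.39). It was found in 5.34% (2.17% to 10.7%) and 18.0% (12.0% to 25.4%) of thinned cells and stood at −0.998 without the cells that carried other lists and at −0.24 with no limit on C1q, while macrophages with fewer than 4 markers gave −0.02 (−0.07 to 0.04). *Clec5a* codes for a DAP12-coupled receptor of myeloid cells and lies at chr6:40551234-40562773 on the − strand (GRCm39). *Clec4e*, which codes for Mincle, was at 0.21 (0.06 to 0.35), *Clec4d* at −0.15 and *Syk*, the kinase below these receptors, at −0.20. Of 8 genes of this list above the floor, 1 was past 1.5-fold lower and 0 higher, against 4.9% and 7.07% of all genes, which are the shares for the next counts over all neutrophils. The shares without carrying cells were 5.72% and 4.97%. Among Fc receptor genes, *Fcgr4*, an activating receptor for IgG2, had 46 and 81 UMIs (−0.84, −1.39 to −0.30) and the inhibitory *Fcgr2b* 88 and 48 (0.85, 0.33 to 1.39), and 2 of 11 were past 1.5-fold higher and 1 lower. *Fcgr4* was at −0.69 without the cells that carried other lists, and *Fcgr2b* then lay below the floor, with 21 and 12 UMIs, so that 0 of 10 were higher and 1 lower. In the Toll-like receptor list, the co-receptor *Cd14* had 322 and 600 CPM (−0.90, −1.12 to −0.68; −0.57 without the cells that carried other lists), and 1 of 12 was past 1.5-fold lower and 0 higher, with a median of −0.17. That direction turned in the neutrophils without carrying cells, where the median was 0.03 over 13 genes with 2 past 1.5-fold higher and 0 lower. These 2 were *Tlr4* at 0.64 (0.14 to 1.15) and *Tlr6* at 0.64 (−0.12 to 1.41), whose interval included 0. *Trem1* had 559 and 726 CPM (−0.38, −0.56 to −0.20), in 57.3% and 73.4% of thinned cells.

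Most other lists had medians closer to 0, with the glucocorticoid and circadian list as an exception. Over all genes 7.07% were past 1.5-fold higher and 4.9% lower. The median was −0.13 over 18 adhesion and migration genes, with 0 past 1.5-fold higher and 1 lower, −0.18 over 10 NADPH oxidase genes with 0 past it, −0.17 over 7 tertiary granule genes with 0 past it, and −0.11 over 8 genes of the IL-1 family with 1 higher, *Il1r1*, 62 of whose 73 β-glucan UMIs were in 1 cell and which had 3 and 2 UMIs without the cells that carried other lists. In the neutrophils without carrying cells, the adhesion median turned to 0.10 over 17 genes with 0 past 1.5-fold, and that of the IL-1 family to 0.02. The median was 0.13 over 8 interferon-stimulated genes with 0 past 1.5-fold (without carrying cells 2 of 9 were higher, *Oasl2* at 0.69 and *Trim30a* at 0.63, against 4.97% of all genes), and 0.11 over 6 eicosanoid genes with 2 higher. Those 2 were *Lta4h*, which makes leukotriene B4, at 75 and 36 UMIs (1.04, 0.45 to 1.65), and *Pla2g4a*, which frees arachidonic acid, at 78 and 48 UMIs (0.68, 0.14 to 1.23). They were at 0.90 and 0.99 without the cells that carried other lists. The median was −0.10 over 16 transcription factor genes, with 1 higher, *Nfil3*, a basic leucine zipper repressor, at 92 UMIs in 46 cells and 46 UMIs in 29 (0.98, 0.45 to 1.52). *Nfil3* was found in 19.8% (13.4% to 27.7%) and 7.19% (3.50% to 12.8%) of thinned cells, and was at 1.15 without the cells that carried other lists. Of 13 immediate early and stress genes, 1 was past 1.5-fold higher, *Fosb*, at 463 and 298 CPM (0.64, 0.40 to 0.87; 0.52, under 1.5-fold, without the cells that carried other lists), and the median was −0.16. All 4 glucocorticoid and circadian genes above the floor were lower, with a median of −0.46, and 1 was past 1.5-fold, *Fkbp5* (−0.80, −1.24 to −0.37; −0.65 without the cells that carried other lists). The fall was not particular to neutrophils. In macrophages with fewer than 4 markers the median of these 4 genes was −0.60, against 0.03 over all genes, and *Fkbp5* was at −0.74 (−0.78 to −0.70). The 16 glycolysis and hypoxia genes had a median of −0.14, with 2 higher. The median was −0.32 over 5 genes linked to osteoclast formation, a list led by *Il1b*, with 0 past 1.5-fold, −0.23 over 8 genes of tissue ageing, led by *Nfkbia*, with 0 past it, and −0.03 over 8 complement and complement receptor genes with 1 higher. Without the cells that carried other lists, 0 of 7 complement and complement receptor genes were past 1.5-fold higher, against 4.97% of all genes. The 2 genes of extracellular trap formation above the floor gave a median within 0.01 of 0 and the nuclear RNAs *Malat1* and *Neat1* 0.03. Cell cycle genes summed to 200.02 and 58.2 CPM, with 1 of 10 above the floor.

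Secondary granule genes had the highest median of the neutrophil lists, 0.76 over 8 genes, with 5 past 1.5-fold higher and 0 lower, where 7.07% of all genes were higher. These 5 were *Camp*, *Ngp*, *Chil3*, *Ltf* and *Lcn2*, and the 2 cells described above held most of their β-glucan UMIs. *Lyz2*, lysozyme, was the exception (−0.51, −0.62 to −0.40). With no limit on C1q, *Ltf* turned to −0.42, *Ngp* to −0.20 and *Lcn2* to −0.71. Leaving out each gene's highest cell in each library moved the median of the list to 1.59. For *Camp*, *Ngp* and *Ltf* this step takes out the 1 PBS cell that held most of their UMIs. It takes out only 1 of the 2 such β-glucan cells, so it does not treat the libraries alike. Without the cells that carried other lists, which included 1 of the 2 β-glucan cells, the median was 0.48 over 7 genes, with 3 past 1.5-fold higher and 1 lower, *Olfm4* at −0.78, where 4.97% and 5.72% of all genes were.

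**Figure D5:**
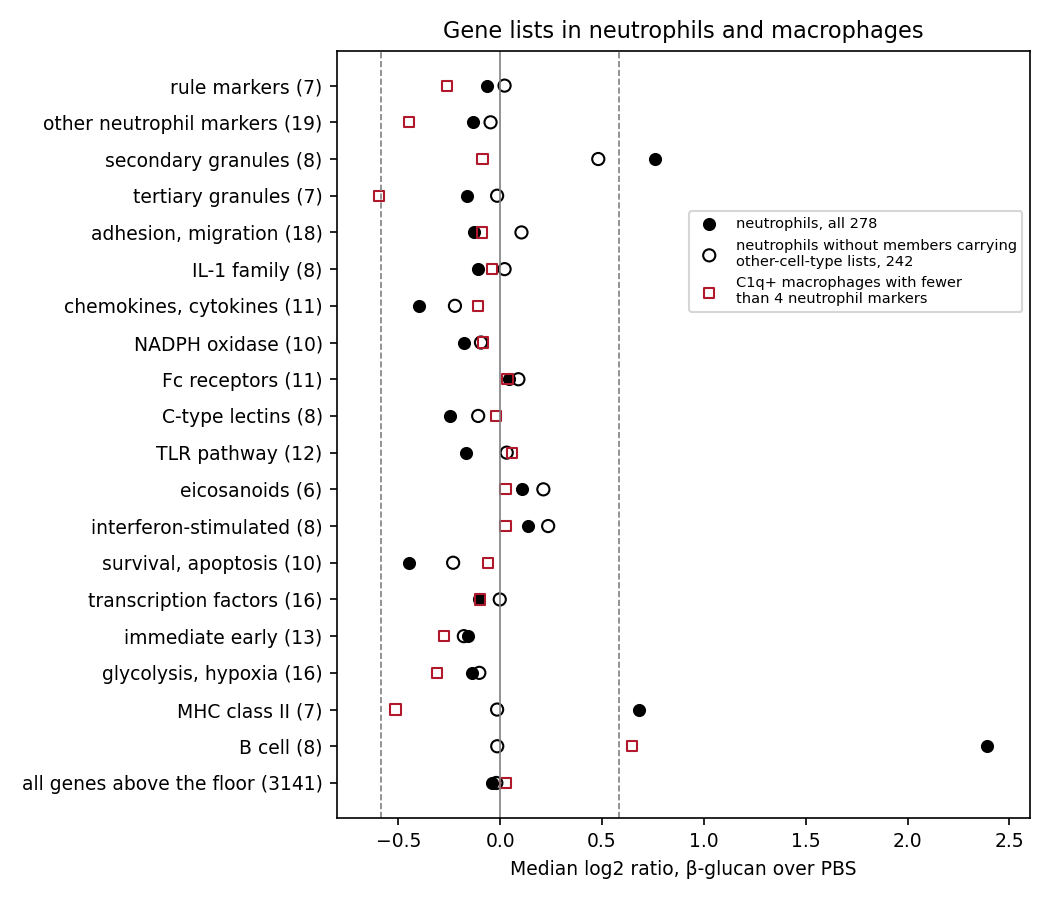
Median log2 ratio of β-glucan over PBS (x axis) of 19 gene lists and of all genes above the floor (y axis, number of genes in brackets), in all 278 neutrophils (filled circles), in the 242 without cells carrying other-cell-type lists (open circles) and in C1q macrophages with fewer than 4 neutrophil markers (squares). Dashed lines mark 1.5-fold, and the MHC class II and B cell medians of neutrophils are near 0 when those cells are left out, which the choice of the cells by these lists fixes, and rest on 1 gene each.

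The genes that the study followed in macrophages were read in neutrophils too. *Mitf*, a transcription factor of the osteoclast lineage, had 80 and 82 UMIs (97.6 and 101 CPM; −0.06, −0.52 to 0.41; −0.12 without the cells that carried other lists) in neutrophils, in 25.9% and 23.8% of cells, whereas macrophages with fewer than 4 markers had 681 and 397 CPM (0.78, 0.75 to 0.80). Its interval in neutrophils lies below the macrophage ratio. For 8 further genes the interval in neutrophils included 0 while the ratio in those macrophages was above 0, and for *Myo5a*, *Ern1*, *Mapk14* and *Csf1r* it included the macrophage ratio as well. *Elmo1*, part of a Rac activator, was at −0.05 (−0.21 to 0.11) in neutrophils against 0.28. *Vav3*, an exchange factor of small GTPases, was at −0.07 (−0.25 to 0.11) against 0.23. *Map3k5*, a stress-activated kinase, was at 0.01 (−0.15 to 0.18) against 0.27. *Myo5a*, a motor protein, was at 0.07 (−0.28 to 0.42) against 0.40, and *Ern1*, a sensor of unfolded proteins, at 0.11 (−0.52 to 0.74) against 0.26. *Rock2*, a kinase of the cytoskeleton, was at −0.29 (−0.65 to 0.08) against 0.14, *Mapk14*, a stress-activated kinase, at 0.14 (−0.16 to 0.44) against 0.13, and *Csf1r* at 0.13 (−0.29 to 0.56) against 0.07. Without carrying cells *Csf1r* was at 0.55 (0.01 to 1.10), an interval above 0. *Klf2*, a quiescence factor, was lower in both, at −0.52 (−0.70 to −0.35) in neutrophils and −0.34 in macrophages. *Nr4a1*, an immediate early nuclear receptor, was at 0.07 (−0.09 to 0.23) against −0.52. *Mef2c* was at 1.05 (0.71 to 1.40), at 0.14 without neutrophils of 10 or more MHC class II UMIs and at 0.64 (0.01 to 1.27) without the cells that carried other lists. In macrophages with fewer than 4 markers *Mef2c* was higher too, at 0.41 (0.39 to 0.44). *Plekhg5*, *Hpgds* and *Cx3cr1* lay below the floor in neutrophils. Of the 13 study genes above the floor, 1 was past 1.5-fold higher and 1 lower, where 7.07% and 4.9% of all genes were. The differences between cell types rest on 1 library a group, and only their counting intervals are known.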

How the data were processed

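Synovial CD45+CD11b+ cells were measured in 1 library per group. The authors deposited raw UMI counts per gene and barcode, made with Cell Ranger 7.0.0 on GRCm39 with Ensembl 104 genes per the submitters' notes and the methods (the notes also name mm10). Whether intronic reads were counted is not given in the sources used here. Cells were filtered by the study's limits and neutrophils chosen by the stated rule, with no clustering. UMIs of the chosen cells were summed per library, divided by their total and given as CPM. The log2 ratio of β-glucan over PBS has an exact 95% interval from the binomial of the 2 sums, shares have Clopper-Pearson intervals, and both cover counting error only. With 1 library per group no p-value was computed. A gene was called past 1.5-fold above a floor of 50 CPM, and 0 counts were read against 3 counts, not against an interval. Levels per cell were compared after thinning to 2000 UMIs.

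No doublets were removed in the main analysis. Scrublet's own threshold called 0 and 3 cells and so did not work, and the highest scores (0.8% per 1000 cells) were left out as an alternative. Ratios and intervals were tested on simulated data. Python 3.11.15, numpy 2.4.6, scipy 1.17.1, pandas 2.3.3, scanpy 1.11.5, R 4.3.3 and edgeR 4.0.16 (TMM factors only) were used. Genes named were the 7 rule markers, the 10 of highest level, the 10 highest and 10 lowest ratios with the same sign with C1q under 3 UMIs, without cells of 10 or more MHC class II UMIs and without the highest Scrublet scores, the 10 highest over macrophages, the 15 most variable, list members of highest level or largest ratio, and 16 genes of the study. The members, gene lists and tests were chosen with earlier results of these data known. Gene coordinates are from GENCODE vM39 (GRCm39), and promoters from RefSeq (GRCm38.p6). Genes of the lists that the feature table did not hold were not analysed here.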

Additional observations from a re-analysis of the deposited data

Results flagged for a closer look

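Cells outside the comparison also met the marker rule, a signal in data that it did not use. Those with at least 4 of the 7 neutrophil markers but 10 or more C1q UMIs numbered 145 after β-glucan and 36 in PBS-control mice. Barcodes that met the marker and C1q rules but failed the filter numbered 20 after β-glucan, 19 of them by mitochondrial UMIs alone, and 10 in PBS-control mice, all 10 by mitochondrial UMIs alone. Their medians were 4959 and 6963.5 UMIs, of which 12.3% and 16.2% were mitochondrial. With 1 library a group, no sample was compared with others of its group.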

How the results depend on the processing

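No paired analysis was possible because each group was 1 library, and for the same reason no replicate could be left out. The share of neutrophils moved with no limit on C1q UMIs, to 4.92% after β-glucan and 3.93% in PBS-control mice, and to 1.97% after β-glucan without the cells that carried other cell types' lists. The counts of genes past 1.5-fold followed the floor. They were 684 higher and 416 lower at 20 CPM, 87 and 47 at 100 CPM, and 2384 and 1459 with no floor. Without the cells that carried other lists 139 were higher, beside 160 lower. With no limit on C1q 277 were lower, beside 297 higher, and with cells thinned to 2000 UMIs 244 were lower, beside 283 higher. Only the first count of each of these pairs moved by more than 1.5 times. In the other 31 of 40 alternatives to these counts and their directions the value stayed within 1.5 times. The share of interferon-positive neutrophils depended on depth, at 13.3% and 13.99% with 1000 UMIs a cell and 65.2% and 58.0% with no thinning. The cause was not tested, apart from depth and the number of genes or cells, which these settings change.

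Values near 0 turned their sign often. Of named genes within 1.5-fold, 19 of 28 did so in at least 1 alternative, among them *Mitf* (−0.32 to 0.29), and of lists within it 17 of 27. Of those past 1.5-fold, 5 of 27 genes and 3 of 4 lists did. *Errfi1*, with most PBS UMIs in 1 cell, was at 0.71 with the stricter filter, 0.72 and 0.71 with at least 5 and 6 markers, 0.12 without the cells that carried other lists and 0.19 without its highest cell. With no limit on C1q, *Ltf* was at −0.42, *Ngp* at −0.20 and *Lcn2* at −0.71. *Plekhg5*, below the floor, was at 0.026 with the stricter filter, 0.45 with C1q under 3 UMIs and 0.52 with no limit. The median of the MHC class II list was −0.041 without cells of 10 or more MHC class II UMIs and −0.015 without all cells that carried other lists, where the B cell list was at −0.015. That of the stromal list was −3.37 without the highest doublet scores and −0.55 with no limit on C1q. In macrophages with fewer than 4 neutrophil markers, against all C1q macrophages, *Il1r2* turned to −0.26, *Cxcr2* to −1.61, *Slpi* to −0.38, *Retnlg* to −0.53 and *Mmp8* to −0.52, and *Camp* to 0.57 and *Ngp* to 0.39. *Il1r2*, *Cxcr2*, *Slpi* and *Retnlg* are rule genes, so leaving out cells by these genes fixes their fall. The median of the chemokine and cytokine list stayed below 0 in 17 alternatives (−0.60 to −0.10), as did that of the survival list (−0.50 to −0.10), and that of secondary granules above 0 (0.24 to 1.59). The 1.59 was the value without each gene's highest cell, which leaves in 1 of the 2 β-glucan cells rich in granule RNA but not the PBS one. *Clec5a* ran from −1.27 to −0.81 in 16 alternatives and was at −0.24 with no limit on C1q. With 1 library a group no setting tells the treatment from the library.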

Other observations

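Some genes outside the lists were past 1.5-fold after the cells that carried other cell types' lists were left out. They were chosen after their values were seen and have no test. *Ifi27l2a*, an interferon-inducible gene, had 79 UMIs in 29 of 112 β-glucan cells and 281 UMIs in 40 of 130 PBS cells (log2 ratio −1.52, −1.90 to −1.15), while the list of interferon-stimulated genes in the same cells had 6 of 9 higher and a median of 0.24. *Rhob*, a small GTPase of the endosome, had 31 UMIs in 22 cells and 98 in 40 (−1.35, −1.98 to −0.75), and *Tmem123* had 31 UMIs in 18 cells and 87 in 52 (−1.18, −1.82 to −0.57). On the higher side, *Rps6ka3*, which codes for the kinase RSK2, had 71 UMIs in 32 cells and 42 in 25 (1.07, 0.50 to 1.66), and *Rala*, a small GTPase, had 52 UMIs in 37 cells and 30 in 23 (1.11, 0.43 to 1.81). The orphan nuclear receptor *Nr4a2* had 60 UMIs in 12 cells and 25 in 11 (1.58, 0.88 to 2.31), with 17 of the 60 in 1 cell.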
